A study of Manihot esculenta with 9 samples.

Results

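The evening part of the plant circadian clock was followed in leaf RNA of cassava (Manihot esculenta). It was represented by 10 genes of the 33033 in the deposited table, taken by their identifiers because their best Arabidopsis matches are GIGANTEA (GI), LUX ARRHYTHMO (LUX), EARLY FLOWERING 3 and 4 (ELF3, ELF4), TOC1, and the pseudo-response regulators PRR5 and PRR3. GI, ELF3, ELF4 and TOC1 were each represented by 1 gene, and LUX, PRR5 and PRR3 by 2 genes each. All 10 passed the filter on low counts. Further cassava matches of ELF3, ELF4 and TOC1 lie outside the 10 and are described after them.

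RNA sequencing was done on 9 libraries, 3 from each of 3 groups. HOE8 and HOE1 are transgenic lines that overexpress MeH1.2, a linker histone, which binds the DNA between nucleosomes, and WT is untransformed cassava. All plants were 2 months old, untreated, and grown from stem cuttings on MS medium in sterile culture bottles. The labels do not name the promoter of the transgene, do not say whether each line stems from 1 transformation event, and call the second line both line 2 and line 8. Numbered libraries are not said to be separate plants. The p-values below therefore cover no more than library-to-library spread, possibly technical. No label gives the hour at which leaves were taken, so for genes of the clock a difference between groups and a difference in the hour of sampling cannot be told apart.

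In Arabidopsis, clock genes repress one another in turn over the day. LHY and its relatives act near dawn, the pseudo-response regulators follow through the day and repress them, and at dusk the evening complex, in which LUX binds DNA, ELF3 is the scaffold and ELF4 is a small partner, represses growth and day genes through the night. GI is a large protein of late day that steadies the blue-light F-box proteins ZTL and FKF1, and through them sets the lifetime of TOC1 and PRR5 and the start of flowering. These roles were not tested in cassava.

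Library totals ran from 13272047 to 16378389 counted reads, of which the 10 genes held 3434 to 3979 in HOE8, 15679 to 17441 in HOE1 and 12445 to 14327 in WT. Manes.08G136300, the linker histone gene whose level checks the labels, measured 3232, 3640 and 3154 CPM (counts scaled by library size) in HOE8, 4563, 4534 and 4742 CPM in HOE1, and 154, 152 and 139 CPM in WT. Within HOE8, library 1 was the odd one: the median chi-square per gene was 1.83 against library 2 and 2.03 against library 3, and 0.766 between libraries 2 and 3, where pure sampling noise gives 0.455. Leaf mesophyll markers were present in every library: 4 of 6 listed markers had matches, as 8 genes, with a summed level of 22238 to 24380 CPM in HOE8, 5584 to 5706 CPM in HOE1 and 2083 to 2138 CPM in WT. Genes matching the senescence protease SAG12 summed to 0.542 to 0.68 CPM in HOE8, 36.1 to 42.4 CPM in HOE1 and 501 to 515 CPM in WT, with 6 of the 13 at 0 reads throughout. Nearly all SAG12 reads came from Manes.16G038400, with 25569 over the 9 libraries, where no other match had more than 44. Shoot meristem markers, with 4 of 4 matched, summed to 33.2 to 35.3 CPM in HOE8, 11.3 to 12.8 CPM in HOE1 and 2.52 to 3.49 CPM in WT. The CLV3 match had 0 reads and each WUS match 3 reads over the 9 libraries, so nearly all of this sum came from the KNAT1 and STM matches. Phloem markers, both matched, summed to 71.4 to 74.3 CPM in HOE8, 182 to 191 CPM in HOE1 and 259 to 275 CPM in WT. Guard cell markers (3 of 3 matched) ranged from 75.8 to 115 CPM and xylem markers (3 of 3 matched) from 10.2 to 31.2 CPM over the 9 libraries, and the only root marker with a match, of 4, stayed at or below 0.452 CPM. The part of these markers in the results below was not tested, and in bulk leaf RNA fewer cells of a type and less RNA per cell cannot be told apart.

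In HOE8 leaves most of the 10 evening genes were far below WT. The GI match was almost, and the ELF4 match among the 10 wholly, without reads. Both LUX copies and both PRR3 copies were several-fold lower, and the ELF3 match was slightly lower. The TOC1 match was slightly higher, and the PRR5 copies moved in opposite directions. All 10 genes passed the test against WT, 8 lower and 2 higher, where 71.9% of all 23434 genes tested passed, 38.2% lower and 33.7% higher. At 2-fold or more, 7 were lower and 1 higher, against 31.9% of all genes in either direction. The median log2 fold change of the 10 was -2.76, against -0.05 over all genes. The 10 were chosen with earlier results of these data known. Outside them, 7 further matches of ELF3, ELF4, TOC1 or ELF4-like proteins had a median of -0.12, with 1 higher and 2 lower. Libraries of HOE8 and WT did not overlap for any of the 10, which also held for 73.7% of all genes. Without HOE8 library 1 the calls were again 8 lower and 2 higher.

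HOE1 leaves differed from WT less at the median, and most genes called were higher. The LUX copy Manes.01G170000, ELF3, the PRR5 copy Manes.01G043200 and the PRR3 match Manes.04G027300 were called in opposite directions in the lines. ELF4, TOC1 and the PRR5 copy Manes.05G016200 were called in the same direction in both. Of the 10 genes, 6 were higher and 1 lower, where 64.4% of all genes passed the test, 31.7% higher and 32.7% lower, so the share called was close to the background. Libraries of HOE1 and WT did not overlap for 9 of the 10, as for 73.3% of all genes. The median log2 fold change was 0.40, against 0.00 over all genes. Set directly against HOE1, HOE8 had 8 genes lower and 1 higher, where 66.5% of all genes passed, 33.8% lower and 32.7% higher. Libraries of the lines did not overlap for 9 of the 10, as for 70.2% of all genes. The 2 comparisons with WT share the WT libraries, and HOE8 against HOE1 shares libraries with both.

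**Figure D1:**
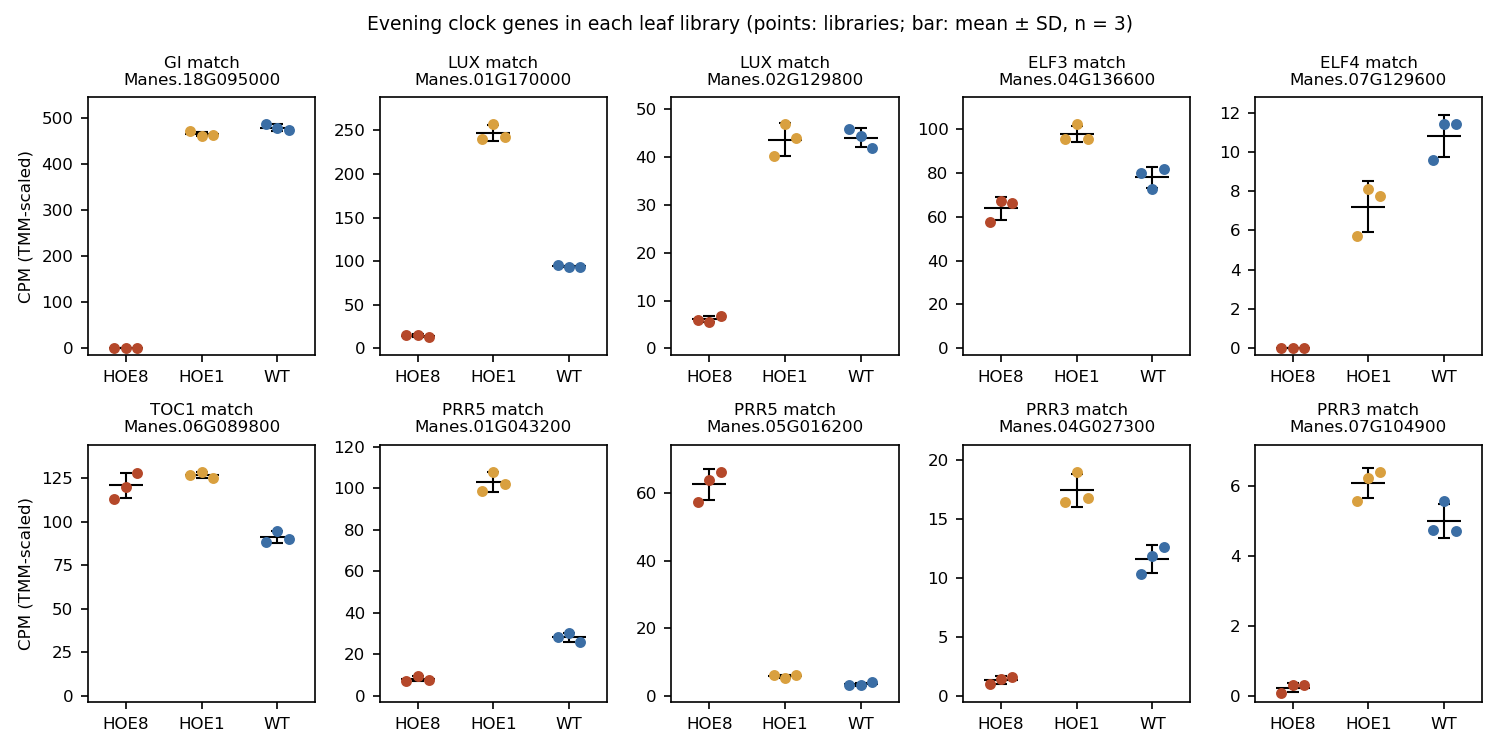
TMM-scaled CPM of each of the 10 evening clock genes (linear axes from 0) in the 3 libraries of HOE8, HOE1 and WT, with mean ± SD. The GI and ELF4 matches sit at or near 0 in HOE8, while Manes.05G016200, a PRR5 match, is high in HOE8 alone.

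The GI match, Manes.18G095000 (chromosome 18, 8224265 to 8240911; the genome build is not given in the sources used here), spans 16647 bases and was the evening gene with the most reads outside HOE8. It measured 0.907, 0.852 and 1.39 CPM in HOE8, 472, 462 and 464 CPM in HOE1, and 487, 478 and 474 CPM in WT. In reads these were 42 over the HOE8 libraries, 20918 over HOE1 and 22598 over WT. HOE8 thus had a trace of GI reads in each library, well above the 3 reads taken as the limit of detection over the group. That limit covers counting error only, and whether these few reads came from HOE8 leaves was not tested. GI was 451-fold lower in HOE8 than in WT (log2 fold change -8.82 ± 0.12 SE, edgeR adjusted p = 1.3e-12), the 34th lowest of the 23434 fold changes. Every HOE1 library lay below every WT library, yet by so little that the difference did not pass (log2 fold change -0.04, 95% interval -0.21 to 0.13, adjusted p = 0.64).

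The evening complex was represented by 4 of the genes. ELF4 is the smallest of its proteins, and its match Manes.07G129600 (chromosome 7, 25433353 to 25434097) had 0 reads in each HOE8 library, 81, 124 and 120 reads in HOE1 and 140, 177 and 194 reads in WT. A level below 0.22 to 0.232 CPM, the worth of 3 reads, would not have been detectable in single HOE8 libraries, and this limit covers counting error only. Against 3 reads over the HOE8 libraries, this match was at least 144-fold lower in HOE8 than in WT and at least 96-fold lower than in HOE1. The other ELF4 match, Manes.10G013000, lies outside the 10. It held more reads over the WT libraries (1934 against 511) and kept 535 reads over the HOE8 libraries. Manes.07G129600 was also the only one of the 10 called lower in HOE1, at 5.72, 8.12 and 7.75 CPM in HOE1, against 9.59, 11.4 and 11.4 CPM in WT, with no overlap between the groups (log2 fold change -0.58 ± 0.16 SE, edgeR adjusted p = 0.0092).

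The LUX copies, which encode the DNA-binding subunit, were both several-fold lower in HOE8. Manes.01G170000 (chromosome 1, 27367738 to 27371008) measured 15.7, 15.5 and 13 CPM in HOE8, 240, 257 and 243 CPM in HOE1, and 95.3, 93.6 and 93.6 CPM in WT. The 3 groups were fully apart, with HOE8 at the bottom and HOE1 at the top. This copy was 6.38-fold lower in HOE8 (log2 fold change -2.67 ± 0.07 SE, adjusted p = 8.7e-11) and 2.62-fold higher in HOE1 (1.39 ± 0.07, adjusted p = 2.3e-08). Manes.02G129800 (chromosome 2, 9505210 to 9510926) measured 6.04, 5.58 and 6.74 CPM in HOE8, 40.1, 46.8 and 44 CPM in HOE1, and 45.8, 44.4 and 41.8 CPM in WT. It was 7.17-fold lower in HOE8 (log2 fold change -2.84 ± 0.09 SE, edgeR adjusted p = 3.1e-10), while HOE1 and WT libraries overlapped (-0.01, 95% interval -0.18 to 0.16, adjusted p = 0.91).

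ELF3, the scaffold of the complex, varied least within it. Its match Manes.04G136600 (chromosome 4, 26446332 to 26453312) measured 57.6, 67 and 66.4 CPM in HOE8, 95.3, 101.6 and 95.2 CPM in HOE1, and 79.7, 72.5 and 81.6 CPM in WT. All HOE8 libraries lay below and all HOE1 libraries above those of WT, at fold changes of 0.817 and 1.25. Both differences passed (log2 fold change -0.29 ± 0.07 SE in HOE8, adjusted p = 0.0036, and 0.32 ± 0.07 in HOE1, adjusted p = 0.0023). HOE8 library 1 was the lowest of the 9, and without it the log2 fold change was -0.22 (adjusted p = 0.0054).

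**Figure D2:**
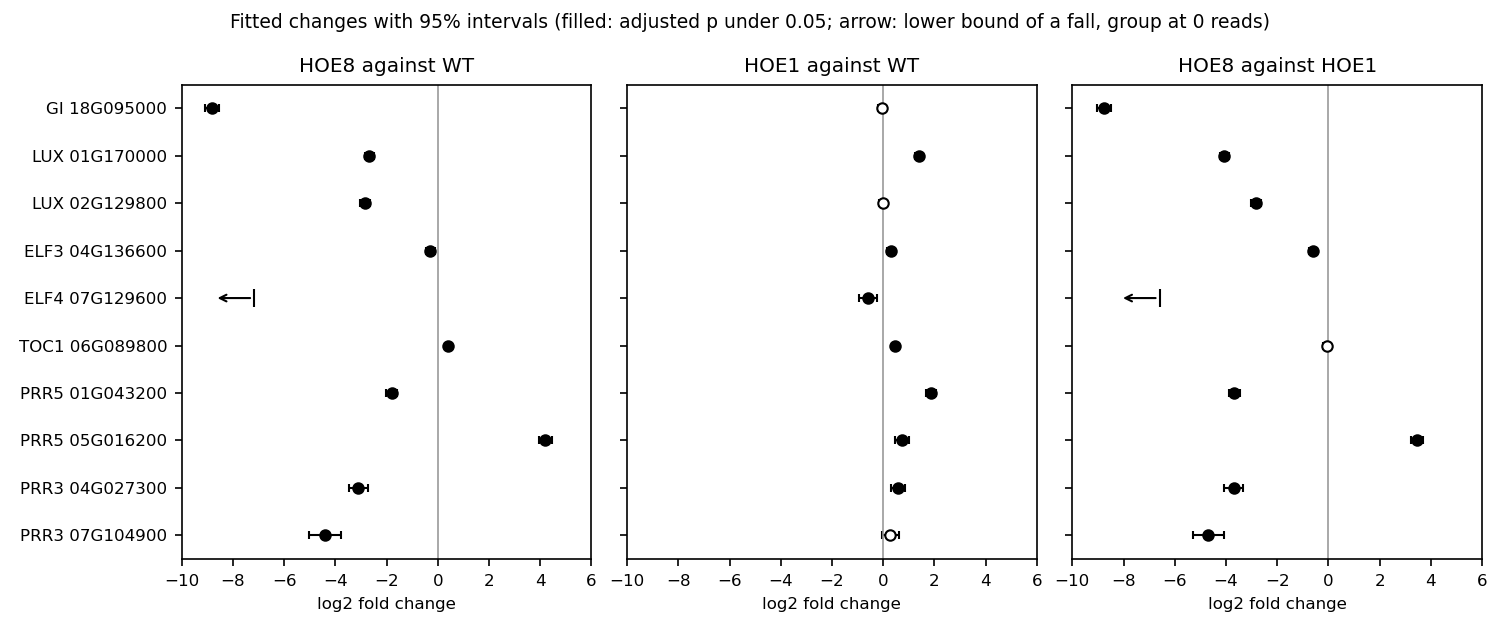
Fitted log2 fold changes of the 10 genes (axis in log2 units, bars 95% intervals, filled points adjusted p under 0.05) for HOE8 against WT, HOE1 against WT and HOE8 against HOE1. ELF4 in HOE8 is drawn as an arrow starting at its bound of at least 144-fold and at least 96-fold lower, since HOE8 had 0 reads.

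The pseudo-response regulators are repressors that carry a receiver-like domain and a CCT motif. TOC1, the founding member, represses the dawn genes in the evening. Its match Manes.06G089800 (chromosome 6, 20347685 to 20353549) measured 113, 120 and 128 CPM in HOE8, 127, 129 and 125 CPM in HOE1, and 88.7, 94.9 and 90.4 CPM in WT. Both lines lay above WT in every library, by 1.32-fold in HOE8 (log2 fold change 0.40 ± 0.06 SE, edgeR adjusted p = 7e-05) and 1.39-fold in HOE1 (0.47 ± 0.06, adjusted p = 2.7e-05). TOC1 was the only one of the 10 for which HOE8 and HOE1 libraries overlapped (log2 fold change -0.07, 95% interval -0.20 to 0.05, adjusted p = 0.27).

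PRR5 represses dawn genes ahead of TOC1 and helps bring TOC1 into the nucleus in Arabidopsis. Manes.01G043200 (chromosome 1, 7046185 to 7051604) measured 7.18, 9.45 and 7.62 CPM in HOE8, 98.4, 108 and 102.2 CPM in HOE1, and 28.2, 30.4 and 26 CPM in WT. It was 3.49-fold lower in HOE8 (log2 fold change -1.80 ± 0.10 SE, adjusted p = 3.2e-08) and 3.65-fold higher in HOE1 (1.87 ± 0.09, adjusted p = 2.3e-08), the largest rise in HOE1 among the 10. The other copy, Manes.05G016200 (chromosome 5, 1168752 to 1174009), measured 57.6, 64 and 66.5 CPM in HOE8, 6, 5.18 and 6.01 CPM in HOE1, and 3.08, 3.17 and 3.99 CPM in WT. It was 18.3-fold higher in HOE8 (log2 fold change 4.19 ± 0.11 SE, adjusted p = 7.4e-11) and 1.67-fold higher in HOE1 (0.74 ± 0.13, adjusted p = 0.00038). Of the 10 genes it was the only one higher in HOE8 than in HOE1 beyond the test (log2 fold change 3.45 ± 0.11 SE, adjusted p = 3.4e-10).

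PRR3 shields TOC1 from the F-box protein ZTL in Arabidopsis. Manes.04G027300 (chromosome 4, 2908268 to 2910577) measured 0.982, 1.39 and 1.61 CPM in HOE8, 16.4, 19 and 16.8 CPM in HOE1, and 10.3, 11.8 and 12.6 CPM in WT. It was 8.65-fold lower in HOE8 (log2 fold change -3.11 ± 0.17 SE, adjusted p = 2.2e-08) and 1.5-fold higher in HOE1 (0.59 ± 0.12, adjusted p = 0.0014). Manes.07G104900 (chromosome 7, 23390184 to 23393594) had 1, 4 and 4 reads in HOE8, 79, 95 and 99 reads in HOE1, and 69, 86 and 80 reads in WT. With so few HOE8 reads its fold is loosely set: the log2 fold change was -4.41 ± 0.28 SE (adjusted p = 8.3e-08), and -4.01 without HOE8 library 1. Libraries of HOE1 and WT were close for this copy, at 5.57, 6.22 and 6.4 CPM in HOE1 against 4.73, 5.56 and 4.69 CPM in WT, a difference that did not pass (log2 fold change 0.28, 95% interval -0.06 to 0.63, adjusted p = 0.13).

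Both PRR3 matches lie near a match of PRR7, the day regulator that acts before PRR5. Manes.04G027400, a PRR7 match, starts 8879 bases beyond the end of Manes.04G027300, and Manes.07G105100, another PRR7 match, starts 32286 bases beyond Manes.07G104900 with 1 gene model between them. On chromosome 4, the PRR7 match measured 7.78, 7.21 and 6.16 CPM in HOE8, 89.7, 91.9 and 91.4 CPM in HOE1, and 57.8, 59.7 and 57.3 CPM in WT. On chromosome 7, it measured 0.756, 0.465 and 0.44 CPM in HOE8, 21.8, 23.4 and 21.4 CPM in HOE1, and 17.9, 22.1 and 20.1 CPM in WT. In HOE8 against WT the neighbours had log2 fold changes of -3.11 (PRR3 match) and -3.05 (PRR7 match) on chromosome 4, and of -4.41 and -5.16 on chromosome 7. The lengths behind the FPKM were 801 and 716 bases for the PRR3 matches on chromosomes 4 and 7, and 1915 and 1590 bases for the PRR7 matches beside them. Whether the neighbouring models are separate transcripts, and whether the PRR3 models are complete genes, was not tested. None of the 10 evening genes overlapped another annotated gene.

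Levels of different genes were compared per length, as TMM-scaled FPKM. In WT the GI match led with 90.3 ± 1.29 FPKM, followed by TOC1 at 31.8 ± 1.13, ELF3 at 24.1 ± 1.49 and the LUX copy Manes.01G170000 at 22.1 ± 0.225 FPKM (SD, n = 3). The ELF4 match at 14.5 ± 1.41 FPKM and the PRR3 match Manes.04G027300 at 14.4 ± 1.48 FPKM overlapped, and the PRR5 copy Manes.05G016200 was last at 0.945 ± 0.138 FPKM. In HOE1 the GI match again led with 87.7 ± 0.986 FPKM, the LUX copy Manes.01G170000 stood next at 57.8 ± 2.11 FPKM, and Manes.05G016200 was last at 1.59 ± 0.132 FPKM. In HOE8 the order was another: TOC1 led with 41.9 ± 2.54 FPKM, ELF3 at 19.7 ± 1.64 and Manes.05G016200 at 17.4 ± 1.27 FPKM followed and overlapped, and GI stood last but for ELF4 at 0.198 ± 0.056 FPKM. Within the HOE8 order the LUX copy Manes.01G170000 and the PRR5 copy Manes.01G043200 overlapped, as did that PRR5 copy and the LUX copy Manes.02G129800, and as did the PRR3 match Manes.07G104900 and GI. The length behind the FPKM of Manes.01G170000 was 4265 bases although its locus spans 3271, so its FPKM is 0.767 of what the span would give, and its place in the order depends on that length. Such a length above the span was found for 3.22% of genes with reads.

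For LUX, PRR5 and PRR3 the division of transcripts between the paired copies was also read. Of the summed FPKM of the PRR5 copies, Manes.05G016200 held 85.9%, 83.7% and 86.9% in HOE8, 4.43%, 3.51% and 4.28% in HOE1, and 7.68%, 7.34% and 10.4% in WT. The main PRR5 copy was thus another one in HOE8 than in HOE1 and WT. The sum itself was 20.3 ± 1.5 FPKM in HOE8, 39.1 ± 1.65 in HOE1 and 11.2 ± 0.682 in WT (SD, n = 3). For LUX, Manes.02G129800 held 41.1% ± 4.69 in HOE8, 22.8% ± 0.865 in HOE1 and 43.9% ± 0.972 in WT, with sums of 5.86 ± 0.179, 75 ± 3.36 and 39.4 ± 0.986 FPKM (SD, n = 3). For PRR3, Manes.07G104900 held 14.9% ± 6.24 in HOE8, 28.1% ± 1.6 in HOE1 and 32.6% ± 2.8 in WT, with sums of 1.98 ± 0.572, 30.2 ± 2.07 and 21.4 ± 1.72 FPKM (SD, n = 3). In exact two-sided permutation tests of the 9 share differences, 7 reached p = 0.1, the smallest value that 3 against 3 libraries allow, and 0.129 after Benjamini-Hochberg adjustment. The other 2 were LUX in HOE8 against WT (exact p = 0.4) and PRR3 in HOE1 against WT (exact p = 0.2). How reads shared by similar copies were counted is not given in the sources used here.

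**Figure D3:**
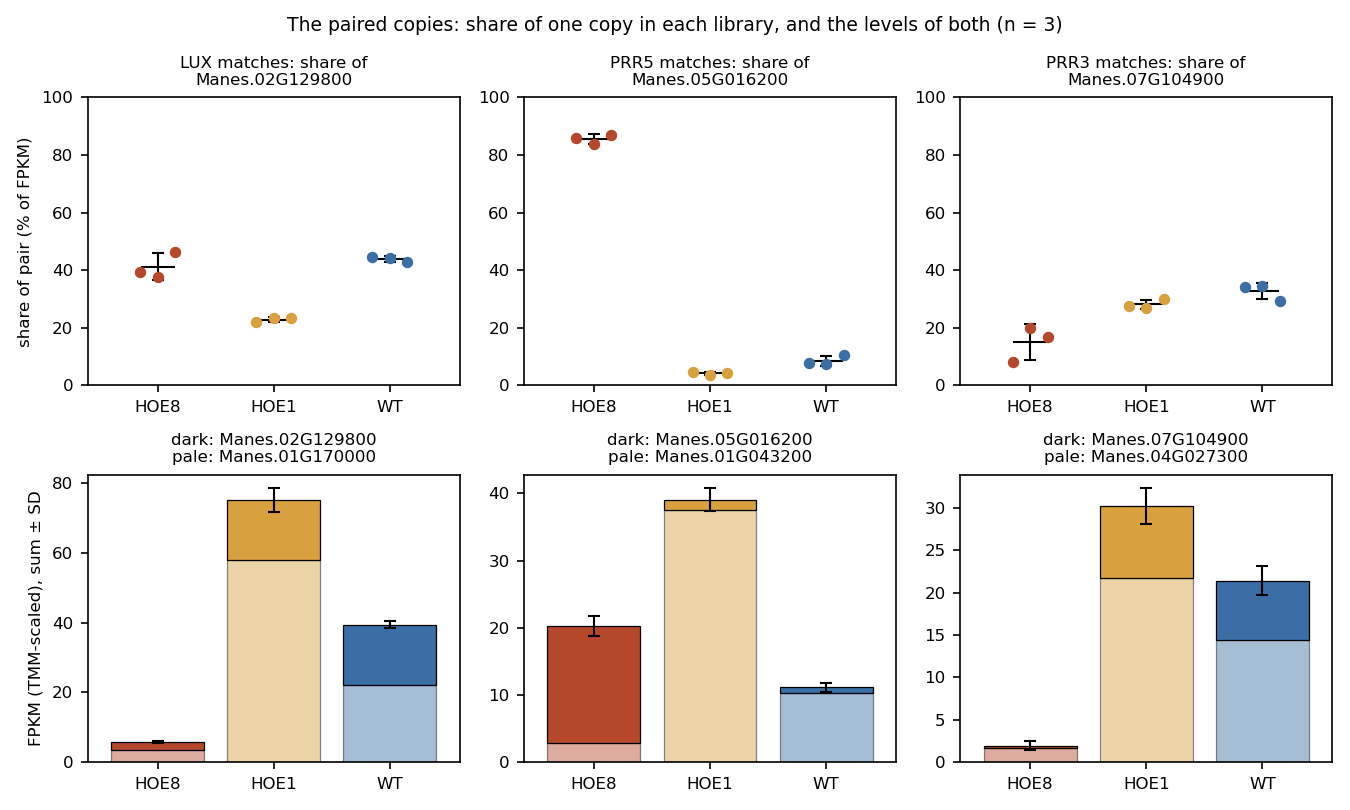
Top row, share of one copy in the summed FPKM of each pair per library (percent, with mean ± SD). Bottom row, mean FPKM of both copies stacked from 0, with the SD of the sum (n = 3 per group). Manes.05G016200 holds 83.7% to 86.9% of the PRR5 pair in HOE8 and at most 10.4% elsewhere.

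Some evening genes have further copies in cassava outside the 10: 7 genes match ELF3, ELF4, TOC1 or an ELF4-like protein. In HOE8, 1 of these 7 was higher and 2 lower, with a median log2 fold change of -0.12, where 71.9% of all genes passed. In HOE1, 4 were higher and the other 3 did not pass, with a median of 0.35, where 64.4% of all genes passed. The second ELF3 match, Manes.16G077200, measured 88 ± 10.3 CPM in HOE8 and 99 ± 5.39 CPM in WT (SD, n = 3), a difference that did not pass (log2 fold change -0.17, edgeR adjusted p = 0.082) except with libraries scaled by their totals alone (-0.27, adjusted p = 0.011). The second TOC1 match, Manes.14G081500, measured 51.1 ± 4.14 CPM in HOE8, 98 ± 0.858 CPM in HOE1 and 55.5 ± 2.25 CPM in WT (SD, n = 3). It rose in HOE1 (log2 fold change 0.82, adjusted p = 8.9e-07), while in HOE8 the value was -0.12 (adjusted p = 0.12), -0.18 without HOE8 library 3 (adjusted p = 0.017) and -0.22 with library totals alone (adjusted p = 0.0093). The second ELF4 match, Manes.10G013000, kept reads in HOE8 where Manes.07G129600 had none, at 15, 11.5 and 13.8 CPM in HOE8, 24.3, 23.7 and 1.03 CPM in HOE1, and 43.3, 40.5 and 39.6 CPM in WT. In WT this second match had the higher level of the ELF4 matches, at 66.1 FPKM against 14.5 FPKM for Manes.07G129600. HOE1 library 3 was far below the other libraries of HOE1, with 16 reads against 344 and 361. With all libraries the log2 fold change of Manes.10G013000 was -1.61 in HOE8 (adjusted p = 0.034) and -1.34 in HOE1 (adjusted p = 0.069), and without HOE1 library 3 it was -1.61 (adjusted p = 1.9e-07) and -0.78 (adjusted p = 0.00015). Leaving out any 1 library of HOE8 or WT ended the HOE8 call, with adjusted p from 0.051 to 0.09, as did DESeq2 (adjusted p = 0.12). The ELF4-like 4 match Manes.16G097100 measured 30.8 ± 2.16 CPM in HOE8 and 32.6 ± 2.23 CPM in WT (SD, n = 3; log2 fold change -0.08, edgeR adjusted p = 0.31). With library totals alone its value was -0.19 (adjusted p = 0.039).

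The rest of the clock was described from a list of 59 Arabidopsis clock, light input and photoperiod genes. Besides the 10, 64 cassava genes had a match there, the 7 copies included, and 62 were tested. In HOE8, 33 were higher and 21 lower (median log2 fold change 0.39), and in HOE1, 41 were higher and 8 lower (median 0.54), where 31.7% of all genes were higher and 32.7% lower. By role the genes divided in HOE8. All 5 matches of the LNK co-activators, morning partners of the REVEILLE factors, were higher, as were 8 of 9 morning MYB factors, and 7 of 8 tested photoperiod output genes with 1 lower. Of the day regulators, 3 of 4 were lower, and of 17 other clock-linked genes 12 were lower and 4 higher. In HOE8, 38.2% of all genes were lower and 33.7% higher.

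At the morning end, the LHY matches Manes.05G015600 and Manes.01G239000, dawn repressors of the evening genes in Arabidopsis, measured 1473 ± 217 and 1251 ± 160 CPM in HOE8, and 16.7 ± 1.43 and 5.32 ± 0.497 CPM in WT (SD, n = 3). In HOE1 they measured 21.6 ± 1.62 and 8.61 ± 0.247 CPM. The LNK4 match Manes.04G156300 rose to 284 ± 13.9 CPM in HOE8 and 18 ± 1.39 CPM in HOE1, against 9.63 ± 0.562 CPM in WT (SD, n = 3). The LNK2 match Manes.04G165400 reached 161 ± 18.2 CPM in HOE8, against 7.26 ± 0.784 CPM in WT (log2 fold change 4.48, edgeR adjusted p = 2.7e-11). Of the day regulators, the PRR9 match Manes.01G239500, whose protein acts earliest in the day, was higher in both lines, at 171, 168 and 187 CPM in HOE8, 97.2, 96.2 and 112.7 CPM in HOE1, and 54.4, 60.9 and 61.6 CPM in WT. The third PRR7 match, Manes.08G001600, was also lower in HOE8 (log2 fold change -0.84, edgeR adjusted p = 5.9e-06).

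The F-box partners of GI were called in opposite directions in HOE8. FKF1, which removes the CYCLING DOF FACTOR (CDF) repressors of flowering genes, had 1 match, Manes.15G134900, at 2.42, 1.55 and 2.86 CPM in HOE8, 239, 230 and 247 CPM in HOE1, and 100, 111 and 110 CPM in WT. The groups were fully apart, with HOE8 lowest and HOE1 highest (log2 fold change -5.55 in HOE8, edgeR adjusted p = 5.2e-11, and 1.16 in HOE1, adjusted p = 2.8e-06). ZTL, which removes TOC1 and PRR5, had 1 match, Manes.06G022700, at 212 ± 2.97 CPM in HOE8, 138 ± 3.92 CPM in HOE1 and 153 ± 4.96 CPM in WT (SD, n = 3). It was higher in HOE8 (log2 fold change 0.48, adjusted p = 4.4e-06). The lower level in HOE1 (log2 fold change -0.14, adjusted p = 0.024) did not pass without WT library 2 or 3 or HOE1 library 1 or 3, with adjusted p from 0.066 to 0.097.

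Targets at the output end were also read. Of 7 CDF matches, repressors of flowering that FKF1 and GI act on, 6 rose in HOE8, where 33.7% of all genes were higher. Among them, Manes.01G092100 (CDF2) measured 156 ± 8.39 CPM in HOE8, 11.7 ± 0.956 CPM in HOE1 and 3.55 ± 0.664 CPM in WT (SD, n = 3). The exception, named after its value was seen, was the CDF3 match Manes.09G136300, which fell to 12.3 ± 1.06 CPM in HOE8, against 16.3 ± 1.3 CPM in WT (SD, n = 3; log2 fold change -0.41, edgeR adjusted p = 0.0033). The match of CONSTANS (CO), Manes.01G024100, another photoperiod output gene and also named after its value was seen, was higher in HOE8 than in WT (log2 fold change 2.39, edgeR adjusted p = 3.5e-07). The flowering signal FT had 2 matches, neither of which passed the count filter. Among light receptors, a cryptochrome 1 match, Manes.02G152400, was higher in both lines, at 298 ± 18.3 CPM in HOE8, 168 ± 4.2 CPM in HOE1 and 65.3 ± 0.796 CPM in WT (SD, n = 3). Another cryptochrome 1 match, Manes.18G067300, was also higher in both lines. The cryptochrome 2 match Manes.15G040500 was lower in HOE8 than in WT (log2 fold change -0.39, edgeR adjusted p = 5.3e-05). The phytochrome A match Manes.09G182500 was called in HOE1 (log2 fold change 0.44, adjusted p = 2.2e-05). In HOE8 its value was 0.10 (adjusted p = 0.11), and 0.14 without HOE8 library 1 (adjusted p = 0.0032). Other scalings gave it 0.13 (RLE, adjusted p = 0.042), 0.15 (upper quartile, adjusted p = 0.024) and 0.00 (library totals alone, adjusted p = 0.96). The RNA-binding protein match GRP8, Manes.17G101400, a clock-driven transcript of the evening in Arabidopsis, measured 543 ± 71.5 CPM in HOE8, 3205 ± 301.9 CPM in HOE1 and 1387 ± 29.2 CPM in WT (SD, n = 3). Its relative, the GRP7 match Manes.15G163200, was lower in both lines (log2 fold change -1.90 in HOE8, edgeR adjusted p = 2.1e-09, and -0.34 in HOE1, adjusted p = 0.0019).

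**Figure D4:**
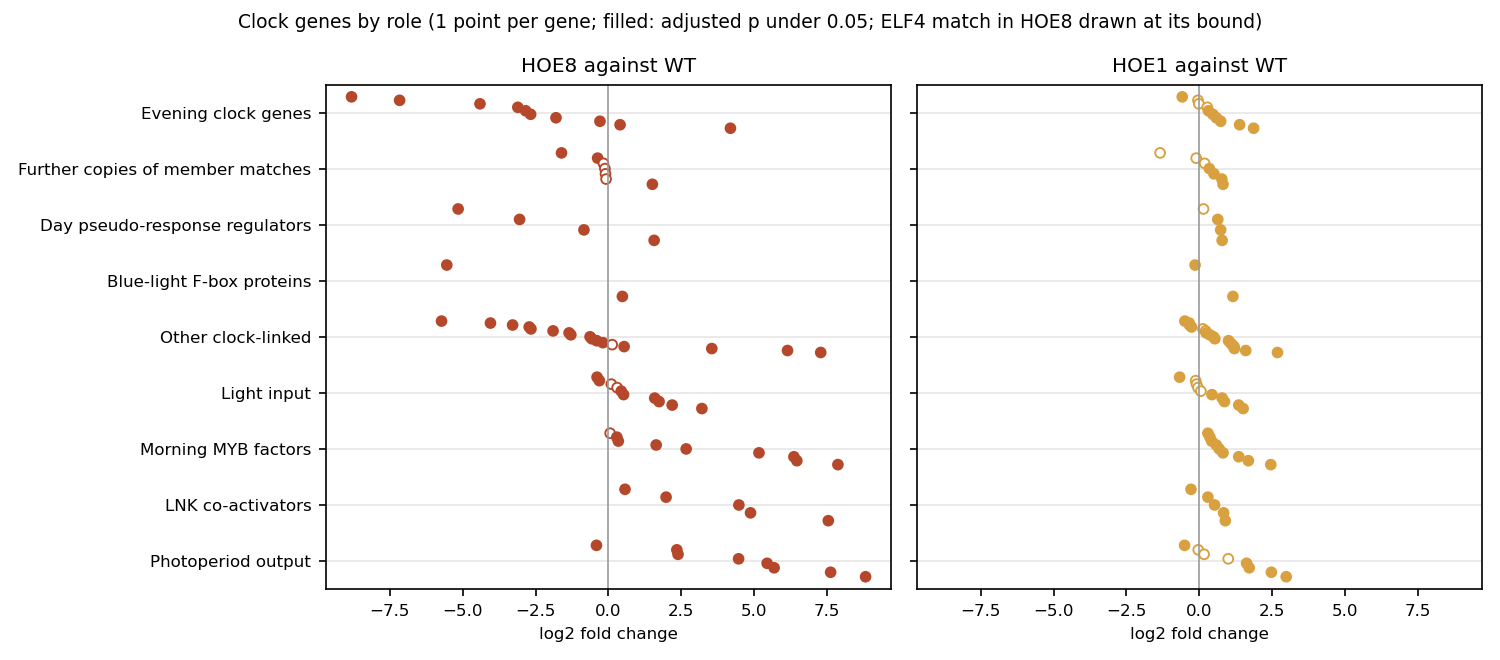
Log2 fold changes of the 10 evening genes and the other tested clock genes by role (1 point per gene, filled where adjusted p is under 0.05), for HOE8 against WT and HOE1 against WT, with ELF4 in HOE8 at its bound. In HOE8 the evening genes lie mostly left of 0, while all 5 LNK matches lie right of it.

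Genes with the profile most like each evening gene were found among 21960 genes with a mean of at least 1 CPM, by the root mean square difference of centred log2(CPM + 1) over the 9 libraries. The 5 nearest to GI, at differences of 0.31 to 0.99, were Manes.07G020600 and Manes.07G021100, which have no description, the AP2/B3-like factor genes Manes.07G020700 and Manes.07G020500, and the cytochrome P450 gene Manes.05G167700. The nearest, Manes.07G020600, measured 0.299 ± 0.19 CPM in HOE8, 182 ± 2.25 CPM in HOE1 and 280 ± 20.9 CPM in WT (SD, n = 3). The choice depended on the measure: 3 of the 5 were among the nearest with a pseudocount of 0.1, and 0 with Pearson correlation. For the other 9 evening genes the single nearest gene lay at a difference of 0.03 to 0.17, and none of these was another of the 10 or a gene of the clock list. The TOC1 match, for example, was nearest to Manes.15G124700, which matches IAP-like protein 1, and the PRR5 copy Manes.05G016200 to Manes.11G155200, which matches a magnesium transporter. Adding 1 CPM compresses the changes of low genes, so for them a small difference need not mean a like fold change. The PRR3 match Manes.07G104900, at 0.226 CPM in HOE8 and 4.99 CPM in WT, was nearest to Manes.12G121200, at 148 CPM in HOE8 and 850 CPM in WT.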

How the data were processed

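For every gene and library the deposited table gave a raw count of reads and an FPKM value, per the file headers. The submitters' processing notes name HISAT2 2.0.4 and StringTie 1.3.0. Build, counting settings and use of strand: not given in the sources used here. Gene lengths were taken from the ratio of count to deposited FPKM and library total. For each gene the length so obtained was the same in all libraries within 0.0672%, which is no check against a separate gene length. The test on counts was that of edgeR 4.0.16 with limma 3.58.1 in R 4.3.3. Its count filter (minimum 10) kept 23434 genes and removed 9599. After TMM scaling, a single quasi-likelihood fit took in the 9 libraries. Two-sided p-values were adjusted by Benjamini-Hochberg across the 23434 genes, and 0.05 was the threshold. The SE of a log2 fold change was its size over the root of F. CPM and FPKM in the text are TMM-scaled. The test was also run on simulated counts, with few genes changed and a common spread for all genes. Since most genes were called in the data, that run cannot show how the scaling or the error rate held here. Groups came from the sample titles. Alternatives were DESeq2 1.42.0, 3 other scalings, no count filter, fits of 2 groups, a replicate block and leaving out each library. The genes and lists were chosen with earlier results of these data known. Of the clock list, up to 4 genes per role by highest mean CPM could be named. No gene identifier matched the separate gene table for this species. No sequence is shown.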

Additional observations from a re-analysis of the deposited data

Results flagged for a closer look

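For 9 of the 10 evening genes the change in HOE8 against WT differed from that in HOE1 against WT, as tested by HOE8 against HOE1 in the edgeR model. Since the WT libraries cancel, this difference is the direct comparison of the lines. Of all genes, 66.5% passed that comparison, 33.8% lower and 32.7% higher in HOE8. For 8 of the evening genes the difference was lower in HOE8. Among them it was -8.78 on the log2 scale for the GI match Manes.18G095000 (adjusted p = 2.1e-12), and -4.06 and -2.83 for the LUX copies Manes.01G170000 and Manes.02G129800 (adjusted p = 1.1e-11 and 5.2e-10). For the ELF3 match Manes.04G136600 it was -0.61 (adjusted p = 2e-05). The fitted value for the ELF4 match Manes.07G129600 was -9.72 (adjusted p = 2.2e-07), which depends on the prior count because HOE8 had 0 reads. The PRR5 copy Manes.01G043200 had -3.67 (adjusted p = 1.7e-10), and the PRR3 matches Manes.04G027300 and Manes.07G104900 had -3.70 and -4.69 (adjusted p = 6.1e-09 and 5.6e-08). The PRR5 copy Manes.05G016200 went the other way, at 3.45 (adjusted p = 3.4e-10). In each of the 9, libraries of HOE8 and HOE1 did not overlap, as for 70.2% of all genes. No formal test for an outlying sample was made within the groups of 3 libraries.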

How the results depend on the processing

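The counts of evening genes called were the same under every alternative run, at 10 in HOE8 against WT, 7 in HOE1 against WT and 9 in HOE8 against HOE1, and from 10 to 10, 7 to 7 and 9 to 9 when single libraries were left out. Of the 480 recomputed fold changes of the 10 genes, 476 kept direction and call. The other 4 were those of the LUX copy Manes.02G129800 in HOE1 against WT, which was not called: against -0.01 it was 0.00 with DESeq2 and with RLE scaling, 0.05 without HOE1 library 1 and 0.02 without WT library 1 (-0.06 to 0.05 over the libraries left out). No same-numbered libraries deviated together (correlations of -0.03 to 0.04), and a replicate block left 10, 7 and 9 evening genes called. Counts over all genes stayed within 1.5 times. With library totals in place of TMM, the calls in HOE8 against WT were 6940 higher and 10013 lower, against 7891 and 8950. With upper-quartile scaling, the calls in HOE8 against HOE1 were 8606 higher and 7068 lower, against 7661 and 7916. Library totals moved the median of all genes to -0.15 in HOE8 against WT, and the median of the evening genes was then -2.86. Low reads limit ELF4 and PRR3 in HOE8.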

Other observations

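Single genes fell in 1 library while the other libraries of the same group agreed. The second ELF4 match, Manes.10G013000, was such a case in HOE1 library 3. Another was Manes.01G043300, matching a LEA hydroxyproline-rich glycoprotein and lying beside the PRR5 copy Manes.01G043200, with 27, 363 and 360 reads in HOE1, 249, 166 and 168 reads in HOE8, and 1050, 1035 and 1147 reads in WT. Counted over the table after these cases had been seen, a level at least 8-fold below both other libraries of the group, where these had at least 200 reads each, was found for 9 to 26 genes in every one of the 9 libraries.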
